A study of Mus musculus with 72 samples.

Results

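The Meis, Pbx and Pknox genes encode homeodomain proteins that bind DNA beside Hox proteins, and 8 of them were followed here through the neural differentiation of mouse embryonic stem cells with and without the nucleoporin Nup133. The members were Meis1, Meis2, Meis3, Pbx2, Pbx3, Pbx4, Pknox1 and Pknox2, chosen by symbol out of 45407 genes matched to the annotation. Each gene was represented by its transcript with the highest total count. All 8 members passed the filter on low counts, which kept 18279 genes.

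RNA was sequenced at day 0, in serum with LIF after removal of feeder fibroblasts, at day 2 in N2B27 medium, and at day 3, the last day of which was spent in 1 µM all-trans retinoic acid. Controls were HM1 (Nup133+/+, 40 chromosomes, XY), with 2 replicates that the labels call biological, and line 1A4, derived from a blastocyst (Nup133+/+, Sox1gfp/+, 40 chromosomes, XY). Knockouts were lines 14 (Nup133-/-, 40 chromosomes, XY) and 19 (Nup133-/-, likely 40 chromosomes, XY), edited from HM1 with CRISPR/Cas9, and the blastocyst-derived line 319 (Nup133merm/merm, Sox1gfp/+, 42 chromosomes, XX +8 +12). Each group of genotype and day therefore held 3 biological samples, of which the knockouts are 3 separate lines and the controls 2 lines, and p-values measure the spread between these samples only.

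The 18 samples held from 16.5 M to 54.4 M gene counts. Nup133 read 180 to 323 CPM (counts per 1e6 gene counts, after TMM scaling) in the 9 control samples and 14.3 to 37.1 in the 9 knockout samples, without overlap. The summed level of 6 embryonic stem cell markers was 3656 to 5415 CPM at day 0 and 121 to 466 at day 3. Lines 14 and 19 had medians of -4.89 to -3.26 against HM1, on the log2 scale, over 4 Y-linked genes, against their XY label. In line 319 chromosome 12 and X genes were higher than in HM1, by medians of 0.36 to 0.51 and 0.42 to 0.69, but chromosome 8 genes were lower at every day (medians of -0.36, -0.49 and -0.47), against the +8 of its label. Day 2 of line 19 was the shallowest library, and results that turn on it are given with and without it.

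All members belong to the TALE class of homeodomain proteins, named for extra amino acids in a loop of the homeodomain. Pbx proteins bind DNA together with Hox proteins and with a Meis or Pknox protein, and the Meis or Pknox partner holds Pbx in the nucleus. In the embryo these complexes act on Hox and other genes of the developing hindbrain, and Meis genes are known to respond to retinoic acid.

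The counted transcripts lie, on GRCm38, at chr11:18879817-19018985 for Meis1 (ENSMUST00000144988), chr2:115863064-116065839 for Meis2 (ENSMUST00000110907) and chr7:16175090-16186504 for Meis3 (ENSMUST00000175946, annotated as a transcript with a retained intron). Those of the Pbx genes lie at chr17:34591266-34597400 for Pbx2 (ENSMUST00000038149), chr2:34171457-34373142 for Pbx3 (ENSMUST00000113132) and chr8:69832491-69872292 for Pbx4 (ENSMUST00000081503). Pknox1 (ENSMUST00000097352) lies at chr17:31564734-31607693, where exons of AC166172.4 overlap it on the other strand, and Pknox2 (ENSMUST00000039674) at chr9:36890982-37147407. The longest annotated transcript of Meis2 held 22.1% of the counts of the transcript used.

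RefSeq promoters (GRCm38.p6) were found for 5 of the 8 members: Meis1, Meis2, Meis3, Pbx2 and Pbx4. For all 5 the counted transcript starts before the RefSeq start, by 16 bases in Meis1, 133 in Pbx4, 305 in Meis3, 993 in Pbx2 and 1220 in Meis2. Of the 250 bases before the RefSeq start, 170 in Meis2 and 160 in Meis3 lie in annotated exons, so those windows lie within the gene and are not shown. The Meis1 stretch is shown because Meis1 rose the most of the 8 members on the day with retinoic acid. It is the 234 bases of the RefSeq window that lie before the counted Meis1 transcript, at chr11:19018986-19019219 on the minus strand, 5′ to 3′, outside annotated exons, with CG dinucleotides in capitals.
Meis1: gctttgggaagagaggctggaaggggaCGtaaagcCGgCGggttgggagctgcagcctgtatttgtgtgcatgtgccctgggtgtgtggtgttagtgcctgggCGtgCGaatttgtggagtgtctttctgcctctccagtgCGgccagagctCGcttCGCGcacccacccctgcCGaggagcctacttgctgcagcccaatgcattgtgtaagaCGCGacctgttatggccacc
The Meis1 stretch holds 12 CG dinucleotides and 60.3% G and C, against medians of 5 and 52.1% over the same stretch of 32851 promoters. Motifs were searched on both strands of the full promoters, from 250 bases before to 50 after the start. The Meis and Pknox motif TGACAG, present in 19.2% of all promoters, was in none of the 5. Neither TGATTGAT (a Pbx and Hox motif, 0.746% of promoters) nor the retinoic acid receptor half-site AGGTCA (16.3%) was in any of them. The shorter core TGACA, in 45.4% of promoters and contained in TGACAG, occurred only in Meis3, starting at positions -228 and -8 from the start site. These are descriptions of letters within 1 window, which for the 5 members lies wholly or in part within the counted transcript.

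At day 0 the control cells expressed Pbx2 and Pknox1 above the other members, and by day 3 Meis2 and Pknox2 had joined Pbx2 at the top. Levels are compared between genes as CPM per kilobase of transcript (mean ± SD, n = 3). The length is that of the 1 counted transcript, from 7553 bases in Meis1 to 1560 in Pbx4. The order of genes therefore depends on the transcript chosen, which the SD between samples does not cover. In day 0 controls Pbx2 stood at 14.1 ± 2.1 and Pknox1, a broadly expressed gene also called Prep1, at 10.1 ± 1.2. Pbx3 followed at 3.22 ± 0.24, Meis3 at 2.11 ± 0.20, Pbx4 at 1.89 ± 0.07 and Meis2 at 1.00 ± 0.24. Pknox2 (0.30 ± 0.08) and Meis1 (0.28 ± 0.07) were lowest and within 1 SD of each other, as Meis3 and Pbx4 were nearly so. In day 3 controls the order was Pbx2 (55.2 ± 3.0), Meis2 (40.0 ± 4.0), Pknox2 (16.1 ± 1.0), Pbx3 (15.4 ± 1.8), Meis1 (5.76 ± 0.88), Meis3 (5.55 ± 0.61), Pknox1 (4.48 ± 0.62) and Pbx4 (4.22 ± 0.14). The neighbours Pknox2 and Pbx3, Meis1 and Meis3, and Pknox1 and Pbx4 did not differ beyond their spread.

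Meis and Pknox proteins bind the same Pbx partners, and the make-up of their summed transcript level was not the same at the 3 days. Pknox1 made up 73.2% ± 0.8 of the Meis and Pknox sum in day 0 controls and 6.22% ± 0.63 at day 3. Meis2 held 7.20% ± 1.03 at day 0 and 55.6% ± 3.4 at day 3, and Pknox2 2.18% ± 0.42 and 22.4% ± 1.6. In knockouts at day 3 Meis2 held 62.6% ± 1.7, Meis1 12.8% ± 2.5 (controls 8.05% ± 1.43) and Pknox2 11.7% ± 1.6. The day 3 ranges of the Pknox2 share, 20.9% to 24.0% in controls and 9.94% to 13.0% in knockouts, did not overlap. The ratio of the Meis and Pknox sum to the sum of Pbx2, Pbx3 and Pbx4 was 0.72 ± 0.14, 0.34 ± 0.01 and 0.96 ± 0.02 at days 0, 2 and 3 in controls. In knockouts it was 0.82 ± 0.07, 0.40 ± 0.05 and 1.41 ± 0.11, and at day 3 the lowest knockout (1.31) lay above the highest control (0.98). The Pbx sum at day 3 was 74.7 ± 4.9 CPM per kb in controls and 72.9 ± 8.4 in knockouts, while the Meis sum was 51.3 ± 2.8 and 85.62 ± 16.02. These sums and shares were not tested, and they depend on the same transcript lengths.

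**Figure D1:**
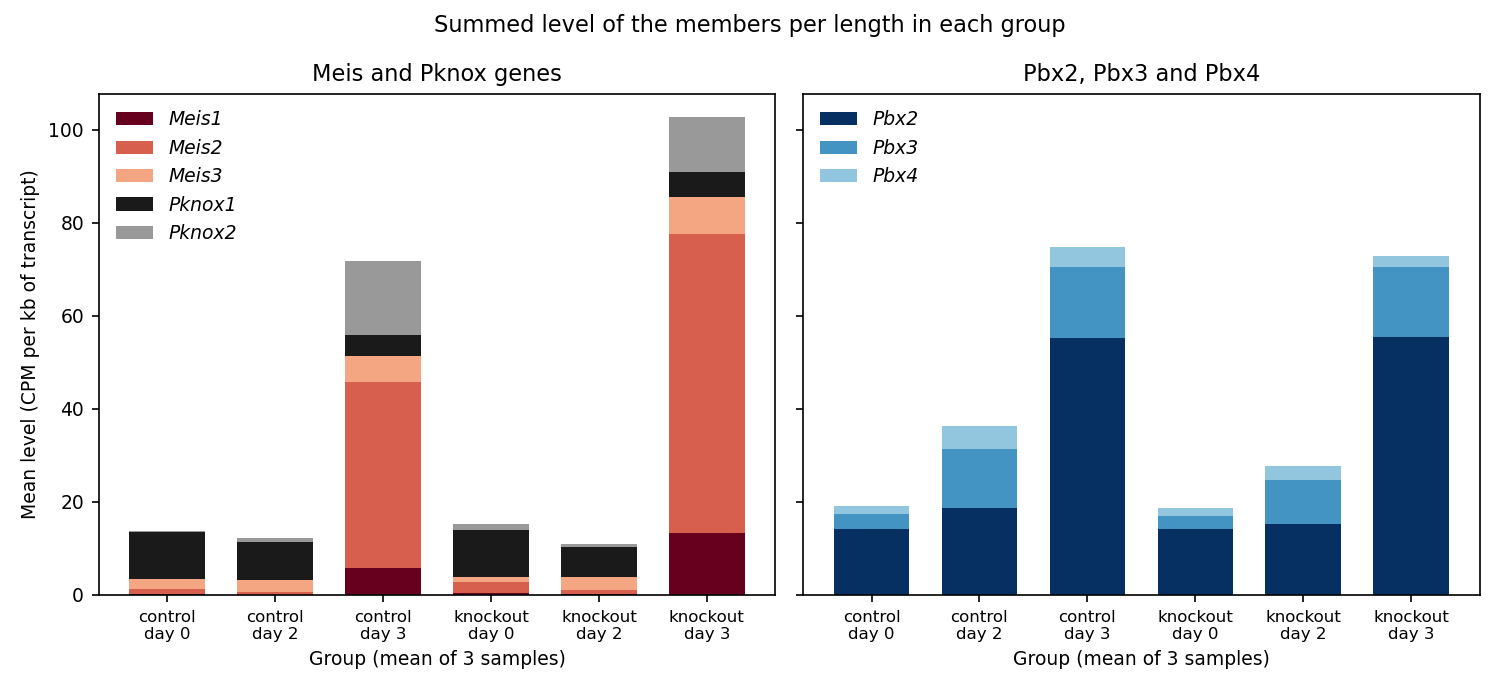
Mean level of each member in CPM per kilobase of transcript (y axis) in the 6 groups of genotype and day (x axis, mean of 3 samples), stacked for the Meis and Pknox genes (left) and for Pbx2, Pbx3 and Pbx4 (right). Pknox1 fills most of the left stacks at days 0 and 2 and Meis2 most of them at day 3, and the right stacks reach 74.7 in controls and 72.9 in knockouts at day 3.

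From day 0 to day 2, before retinoic acid, Meis1 fell and Pbx3 rose in both genotypes. Meis1 read 2.52, 2.33 and 1.48 CPM at day 0 in HM1 replicate 1, HM1 replicate 2 and line 1A4, and 0.58, 0.72 and 0.42 at day 2. Every day 2 control lay below every day 0 control, a 3.63-fold fall (log2 fold change -1.86 ± 0.23 SE, adjusted p = 2.9e-05). In the knockouts Meis1 read 3.84, 4.21 and 1.55 CPM in lines 14, 19 and 319 at day 0 and 0.91, 0.83 and 0.73 at day 2, a fall of the same size (-1.87 ± 0.23, adjusted p = 2.8e-05). Pbx3 moved in the opposite direction, from 9.46, 8.17 and 8.82 CPM to 39.0, 33.7 and 31.5 in the controls. Its rise was 3.94-fold there (1.98 ± 0.19, adjusted p = 3.4e-06) and 3.40-fold in the knockouts (1.76 ± 0.19, adjusted p = 6.7e-06), where lines 14, 19 and 319 went from 7.92, 6.95 and 8.32 CPM to 32.6, 20.7 and 25.3. The day 0 and day 2 ranges of Pbx3 did not overlap in either genotype.

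In all, 3 of 8 members changed in the controls over these 2 days, where 35.2% of all tested genes were called, and 4 of 8 in the knockouts, where 35.9% were. The third control call was Pbx4, best known from spermatocytes of the adult testis, which rose 2.53-fold from 2.99, 2.84 and 3.03 CPM to 7.68, 7.18 and 7.51 (1.34 ± 0.31, adjusted p = 0.0037). In the knockouts Pbx4 spread widely at day 2, at 4.22 CPM in line 14, 7.91 in line 19 and 2.16 in line 319, and did not pass the test (0.83 ± 0.32, adjusted p = 0.054). Meis2 fell in the knockouts (-1.25 ± 0.35, adjusted p = 0.012) from 6.31, 6.39 and 13.0 CPM to 5.23, 3.62 and 2.20, most in line 319. Its control value was -0.88 ± 0.35 (adjusted p = 0.062), with 4.08, 4.37 and 2.71 CPM at day 0 and 2.54, 2.42 and 1.17 at day 2. Pknox1 fell in the knockouts as well (-0.60 ± 0.19, adjusted p = 0.021), and line 19 was the lowest at day 2 with 20.0 CPM beside 31.0 in line 14 and 33.2 in line 319. The other members, Meis3, Pbx2 and Pknox2, passed the test in neither genotype over this interval.

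Several of these calls changed when a series was left out. The Pbx4 call in controls was lost without HM1 replicate 1 (1.33, adjusted p = 0.061) or replicate 2 (1.33, adjusted p = 0.054), with its value almost unchanged. Over all genes those fits called 2831 of 18539 and 3164 of 18499 in controls, beside 6439 of 18279 with every series. The Meis2 call in knockouts was lost without line 319 (-0.47, adjusted p = 0.19). The Pknox1 call in knockouts was lost without line 19 (-0.31, adjusted p = 0.16), line 14 (-0.65, adjusted p = 0.083) or HM1 replicate 1 (-0.61, adjusted p = 0.055), and without day 2 of line 19 alone (-0.39, adjusted p = 0.058). Leaving out line 14 or HM1 replicate 1 gave 3813 of 18532 and 4994 of 18539 genes called in knockouts, beside 6561 of 18279. Without line 319 calls were gained for Meis3 (1.54, adjusted p = 0.0021), Pbx4 (1.31, adjusted p = 0.0019) and Pknox2 in knockouts, where Pknox2 turned from -0.64 (adjusted p = 0.57) to 1.95 (adjusted p = 0.00048). The same change gained calls for Meis2 (-0.88, adjusted p = 0.010), Pbx2 (0.43, adjusted p = 0.011) and Pknox2 (1.30, adjusted p = 0.00062) in controls, whose spread is estimated jointly with the knockouts. Without line 19, Pbx2 was also called in controls (0.43, adjusted p = 0.034). These fits called more genes in general. Leaving out line 319 gave 7719 of 18696 genes called in knockouts and 7819 in controls, beside 6561 and 6439 of 18279. Leaving out line 19 gave 8905 of 18788 in controls. The Pbx3 rise in knockouts was smaller and not called on the longest transcript of the gene (0.73, adjusted p = 0.18), which held 5.6% of the counts of the transcript used. With each line's 3 days as a fixed replicate block, Pbx2 in controls was called as well (0.42, adjusted p = 0.039).

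**Figure D2:**
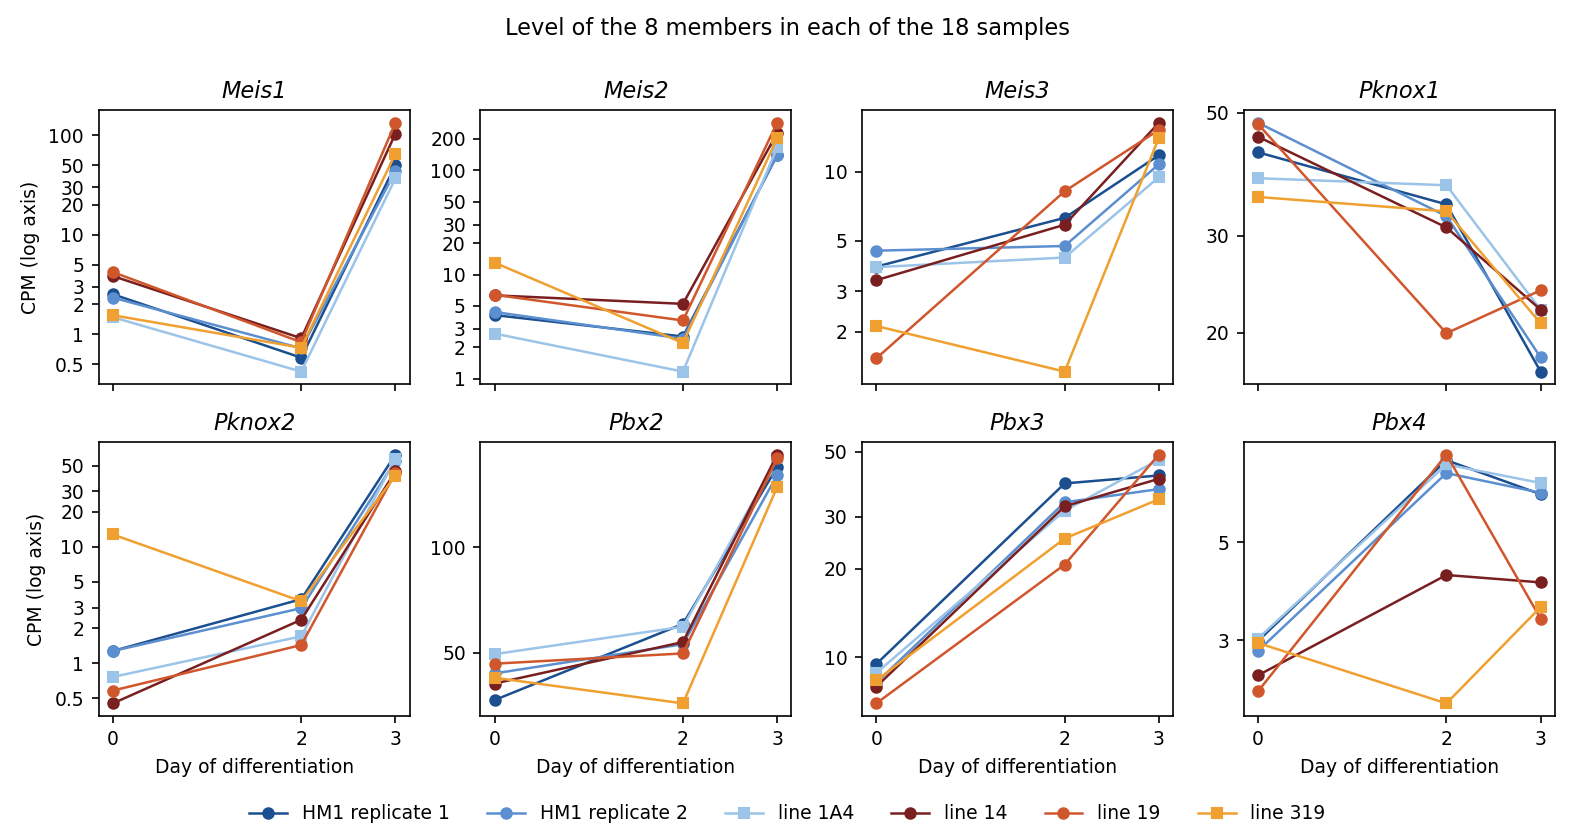
Level of each member in CPM (y axis, log scale) at days 0, 2 and 3 (x axis), with the 3 samples of 1 series joined by a line (controls in blue, knockouts in red and orange). Meis1 dips at day 2 and stands between 36.9 and 134 CPM at day 3 in all 6 series, and Pknox2 at day 0 stands at 12.8 CPM in line 319 and at most 1.27 in the others.

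From day 2 to day 3, the day with retinoic acid, Meis1, Meis2 and Pknox2 rose the most of the 8 members. Every day 3 sample had retinoic acid, so a response to it and the passing of time cannot be told apart. Meis1 went from below 1 CPM in all 6 day 2 samples to 50.1, 43.4 and 36.9 CPM in HM1 replicate 1, HM1 replicate 2 and line 1A4. In lines 14, 19 and 319 it reached 104, 134 and 65.0 CPM. Its rise was 76.8-fold in controls (6.26 ± 0.25, adjusted p = 3.7e-10) and 118-fold in knockouts (6.88 ± 0.26, adjusted p = 3.1e-10).

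Meis2 reached 139, 141 and 166 CPM in the controls and 228, 286 and 204 in the knockouts, with no sample of day 2 above 5.23. That is 74.5-fold in controls (6.22 ± 0.41, adjusted p = 7.3e-08) and 64.1-fold in knockouts (6.0 ± 0.40, adjusted p = 8e-08). Pknox2, a Pknox1 paralog with a more restricted expression, rose from 3.55, 2.97 and 1.70 CPM to 62.4, 55.1 and 57.4 in controls, or 20.5-fold (4.36 ± 0.83, adjusted p = 0.0015). In the knockouts it rose 18.6-fold (4.21 ± 0.84, adjusted p = 0.0015), from 2.36, 1.43 and 3.41 CPM to 44.7, 43.4 and 41.1. For these 3 genes every day 3 sample lay above every day 2 sample.

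In the controls 5 of 8 members passed the test over this interval, beside 21.4% of all genes tested, and in the knockouts 6 of 8, beside 33.6%. Pbx2, the most abundant Pbx gene here, rose 2.94-fold in controls (1.56 ± 0.16, adjusted p = 9e-06), from 60.4, 52.9 and 59.3 CPM to 169, 160.2 and 179. In knockouts it rose 3.66-fold (1.87 ± 0.16, adjusted p = 1.1e-06), from 53.7, 49.8 and 35.9 CPM to 183, 179 and 148. Pknox1 was the member that fell, in controls 1.82-fold (-0.86 ± 0.19, adjusted p = 0.0042), from 34.2, 32.5 and 37.0 CPM to 17.03, 18.1 and 22.0. The knockouts, at 22.0, 23.9 and 20.8 CPM on day 3, gave -0.34 ± 0.19 (adjusted p = 0.18). Meis3 rose in knockouts (1.69 ± 0.39, adjusted p = 0.0042) to 16.4, 15.2 and 14.1 CPM and reached 11.8, 10.8 and 9.47 in controls (1.08 ± 0.38, adjusted p = 0.052). Pbx3 rose in knockouts (0.65 ± 0.18, adjusted p = 0.013) and gave 0.28 ± 0.18 in controls (adjusted p = 0.31), and Pbx4 passed the test in neither.

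The change of the knockout minus control difference from day 2 to day 3 was called for none of the 8 members, beside 0.0383% of all genes, so that a call in 1 genotype alone is not shown to differ from the other. The interval from day 0 to day 2 likewise gave 0 of 8, beside 0.0219%. At an unadjusted p under 0.05 the counts were 0 of 8 for both, and DESeq2 called 0 of 8 in both. The Pknox1 call in controls was lost without HM1 replicate 1 (-0.80, adjusted p = 0.094) or replicate 2 (-0.87, adjusted p = 0.068). Over all genes those fits called 1258 of 18539 and 1215 of 18499 in controls, beside 3918 of 18279 with every series. The Pbx3 call in knockouts was lost without line 19 (0.36, adjusted p = 0.12). Without line 19, Pknox1 was called in knockouts (-0.59, adjusted p = 0.017) and Meis3 in controls (1.08, adjusted p = 0.015). A random replicate block gave the same call for Meis3 in controls (1.08, adjusted p = 0.024), as did leaving out line 319 (1.08, adjusted p = 0.0046). In controls these 3 fits called 6363 of 18788, 4306 of 18279 and 5467 of 18696 genes, more than the 3918 with every series. In knockouts the fit without line 19 called 5245 of 18788, beside 6145 of 18279.

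Genes that work with the members, or are known to respond to them or to retinoic acid, were read from 4 lists. From day 2 to day 3 the test called 21.4% of all genes in controls and 33.6% in knockouts. All 15 Hox genes of groups 1 to 5 rose from day 2 to day 3 in both genotypes, with a median log2 fold change of 7.90 in controls and 7.62 in knockouts, and of 7.73 and 7.08 with genes at the counting floor set to their bound, beside 0.00 over all genes. Hoxb4 went from 0.11 ± 0.02 to 42.2 ± 7.0 CPM in controls and from 0.12 ± 0.09 to 42.3 ± 18.03 in knockouts. Hoxb1 spread more between samples at day 3, at 12.3 to 52.8 CPM in controls and 24.6 to 116.0 in knockouts. Genes of Hox clusters overlap, so reads can be shared between neighbours.

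All 11 genes of the retinoic acid response list also rose in both genotypes, by medians of 4.41 and 4.87. Crabp2, a retinoic acid binding protein of the cytoplasm, rose from 47.8 ± 4.9 to 981 ± 245 CPM in controls and from 38.9 ± 19.8 to 1133 ± 395 in knockouts. Stra8, which starts meiosis in germ cells, stood at 0.20 ± 0.17 CPM in day 2 controls and 187 ± 78 at day 3. Cyp26a1, which degrades retinoic acid, was 13.9-fold lower in knockouts than in controls at day 0 (adjusted p = 7.6e-05) and 26.1-fold lower at day 2 (adjusted p = 0.00023). Its day 2 knockout level was 0.13 ± 0.13 CPM, near the floor, so the size of that fold is uncertain. At day 3 it was 2.36-fold higher in knockouts (adjusted p = 0.028). The day 3 call was made in 10 of 17 alternatives, with adjusted p of 0.0015 to 0.18, and was lost without any 1 of the 3 control series, line 14 or line 319.

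Of 10 TALE relatives, 6 rose and 1 fell in controls, and 6 rose and 2 fell in knockouts, with medians of 1.55 and 2.61. These counts and those of the hindbrain genes below are of genes that passed the test. They stand beside 21.4% of all genes in controls and 33.6% in knockouts. Tgif1, a TALE repressor, fell from 139 ± 9 to 60.9 ± 7.0 CPM in controls (-1.19 ± 0.12, adjusted p = 9.2e-06) and from 188 ± 19 to 55.0 ± 1.3 in knockouts (-1.77 ± 0.13, adjusted p = 1.3e-07). Tgif2 fell in knockouts (-0.51 ± 0.17, adjusted p = 0.030). Pbxip1, a protein that binds Pbx, passed the test in neither. It is counted among the 10 although it was listed for binding Pbx and not as a TALE gene. Of 9 hindbrain genes known as targets of Hox or TALE factors or of their region, 5 rose and 2 fell in controls, and 5 rose and 1 fell in knockouts, with medians of 1.96 and 1.40. The count of 7 in controls was 2 without HM1 replicate 1 and 3 without HM1 replicate 2. Over all genes those fits called 1258 of 18539 and 1215 of 18499, beside 3918 of 18279 with every series. Epha2 fell in both (-1.80 in controls, adjusted p = 0.011, and -1.73 in knockouts, adjusted p = 0.0097), Epha4 rose in knockouts (1.40, adjusted p = 0.0010), and Gbx2 rose in controls (2.13, adjusted p = 0.024).

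**Figure D3:**
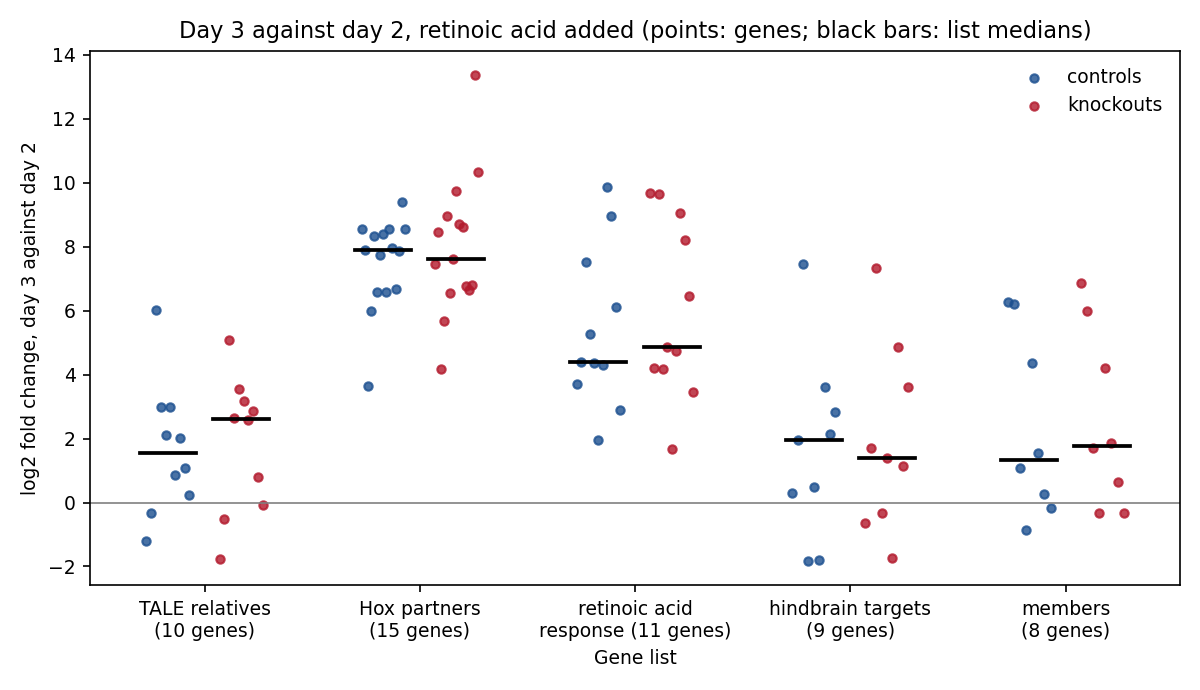
Log2 fold change from day 2 to day 3 (y axis) of each gene in the 4 lists and of the 8 members (x axis), for controls (blue) and knockouts (red), with list medians as black bars. All Hox and retinoic acid response genes lie above 0, while the members run from -0.86 to 6.26 in controls and from -0.34 to 6.88 in knockouts.

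The genes whose levels followed each member most closely over the 18 samples were read from 13061 candidates by Pearson's r of log2(CPM + 0.5), as a description in which the day of sampling is shared by all points. For Meis1 they were Tshz1 (0.986), Hoxa4 (0.98) and Hoxa3 (0.977), and for Meis2 Hoxa3 (0.987), Stra8 (0.983) and Hoxa5 (0.981). Among the members Meis1 and Meis2 were most alike (0.98), and Pknox1 ran against Pknox2 (-0.82) and Pbx2 (-0.81). Pbx2 was followed by Csn3 (0.982), Tmem132e (0.982) and Plppr1 (0.979), and Pbx3 by Sort1 (0.986), Gatm (0.984) and Wnk2 (0.983). Pknox2 was most like Col2a1 (0.972), Iqsec2 (0.972) and Reep1 (0.965), Pknox1 like Sdad1 (0.963), Nup107 (0.963) and Oxsr1 (0.962), Meis3 like Camk1 (0.959) and B4gat1 (0.944), and Pbx4 like Pcyt2 (0.956), Pmvk (0.947) and Mvd (0.944).

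Between knockouts and controls, Meis1 at day 3 was the 1 call among the 8 members. Its values were 50.1, 43.4 and 36.9 CPM in the controls and 104, 134 and 65.0 in lines 14, 19 and 319. The groups did not overlap, line 19 was highest and line 1A4 lowest, and Meis1 was 2.23-fold higher in knockouts (1.16 ± 0.19, adjusted p = 0.0048). At that day 5.18% of all tested genes were called. Against the control of its own background, Meis1 was higher by 1.15 in line 14, 1.51 in line 19 and 0.81 in line 319 on the log2(CPM + 0.5) scale, while the HM1 replicates differed by 0.21 and line 1A4 minus HM1 was -0.33.

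The Meis1 call was made in 15 of 17 alternatives. It was lost without HM1 replicate 1 (adjusted p = 0.087) or HM1 replicate 2 (adjusted p = 0.10), where the log2 fold change was still over 1. Over all genes those fits called 37 of 18539 and 17 of 18499, beside 947 of 18279 with every series. Exons of Gm37818, on the same strand of chromosome 11, can share reads with Meis1, whose counted transcript has 10 exons. Chromosome 11 genes were lower in all 3 knockout lines than in HM1 at day 3, by medians of -0.32, -0.33 and -0.39, and with samples centred by chromosome the Meis1 value was 1.47 (adjusted p = 0.0052). The summed level of 6 neural progenitor markers at day 3 was 333, 284 and 308 CPM in the controls and 612, 910 and 270 in lines 14, 19 and 319. The part of these markers in the Meis1 difference was not tested, and in bulk RNA a change in the share of cells that express a gene cannot be told apart from a change in RNA per cell.

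At day 0, 0 of 8 members were called, beside 0.853% of all genes, with 2 of 8 at an unadjusted p under 0.05 (Meis1 and Meis2), and DESeq2 called 1. Meis2 had 4.08, 4.37 and 2.71 CPM in the controls and 6.31, 6.39 and 13.0 in lines 14, 19 and 319, without overlap, and gave 1.25 ± 0.34 (adjusted p = 0.12). DESeq2 gave 1.26 with an adjusted p of 0.020. Meis1 gave 0.55 ± 0.21 (adjusted p = 0.31), and 0.79 without line 319 (adjusted p = 0.037). The fit without line 319 called 407 of 18696 genes, beside 156 of 18279 with every line. Meis3 gave -0.80 ± 0.39 (adjusted p = 0.49), with 3.85, 4.52 and 3.83 CPM in the controls and 3.36, 1.53 and 2.12 in the knockouts. The feeder fibroblast list, 10 genes, summed to 113 to 210.1 CPM in day 0 controls and 80.6 to 143 in day 0 knockouts, and its part in these values was not tested.

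At day 2, 0 of 8 members were called, beside 1.6% of all genes, with 3 of 8 at an unadjusted p under 0.05 (Meis2, Pbx3 and Pbx4), and DESeq2 called 0. Meis2 gave 0.88 ± 0.36 (adjusted p = 0.18), with line 319 below both HM1 replicates, and 1.07 without line 319 (adjusted p = 0.039). The fit without line 319 called 1378 of 18696 genes, beside 292 of 18279 with every line. Pbx3 gave -0.40 ± 0.18 (adjusted p = 0.23), and Pbx2 -0.31 ± 0.16 (adjusted p = 0.28). Pbx4 gave -0.69 ± 0.31 (adjusted p = 0.23), and -1.20 without day 2 of line 19, the sample in which it was highest (adjusted p = 0.025).

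Among the members not called at day 3, Pbx4 was lower in every knockout sample. It read 6.43, 6.48 and 6.82 CPM in the controls and 4.06, 3.36 and 3.57 in lines 14, 19 and 319, without overlap (-0.84 ± 0.31, adjusted p = 0.12). Over 17 alternatives the adjusted p ran from 0.018 to 0.36. Pbx4 was called with the day 3 samples alone in the fit (-0.85, adjusted p = 0.025) and without day 2 of line 19 (-0.85, adjusted p = 0.018). Those fits called 2547 of 16873 and 3007 of 18929 genes, beside 947 of 18279 in the fit of all samples. The fit of day 3 alone leaves 3 residual degrees of freedom. Pbx4 lies on chromosome 8. The median of chromosome 8 genes at day 3 was -0.07 in line 14, -0.37 in line 19 and -0.47 in line 319 against HM1. The Pbx4 difference to its own background was -0.61 in line 14, -0.85 in line 19 and -0.85 in line 319, and the value centred by chromosome was -0.53 (adjusted p = 0.33).

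Pknox2 at day 3 also had groups that did not overlap, 62.4, 55.1 and 57.4 CPM in controls against 44.7, 43.4 and 41.1 in knockouts, and gave -0.43 ± 0.71 (adjusted p = 0.78). The fit on the day 3 samples alone gave -0.45 with an adjusted p of 0.026. Meis2 at day 3 lay above the controls in every knockout sample (0.67 ± 0.32, adjusted p = 0.23) and was called in a fit of HM1 with lines 14 and 19 (0.87, adjusted p = 0.024) and in a fit of the day 3 samples (0.67, adjusted p = 0.028). Meis3 likewise did not overlap (0.52 ± 0.37, adjusted p = 0.45; 0.50 with an adjusted p of 0.042 in the day 3 samples alone). Over all genes the day 3 samples alone gave 2547 calls of 16873, and HM1 with lines 14 and 19 gave 1127 of 18518. The fit of all samples gave 947 of 18279. Pbx2, at 0.00 ± 0.16 with an interval of 2 SE from -0.31 to 0.32, Pbx3 (-0.03, interval -0.39 to 0.33) and Pknox1 (0.23, interval -0.15 to 0.60) had overlapping groups.

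**Figure D4:**
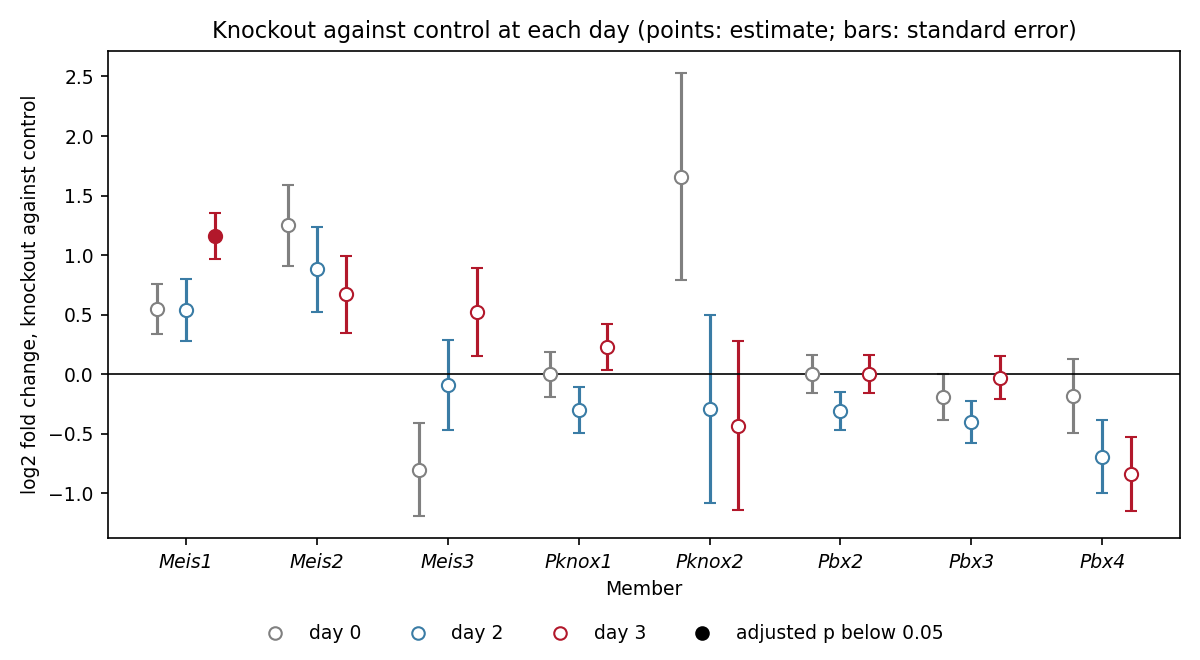
Log2 fold change of knockout against control (y axis) for each member (x axis) at days 0, 2 and 3, with the standard error as bars and filled points for an adjusted p below 0.05. Meis1 at day 3, at 1.16, is the filled point, and Pknox2 has the widest bars.

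In the lists the same comparison at day 3 called 3 of 15 Hox genes higher, with a median of 0.99 beside 0.02 over all genes, and none lower. They were Hoxd1 (2.65, adjusted p = 0.0035), Hoxc5 (1.55, adjusted p = 0.037) and Hoxa3 (0.94, adjusted p = 0.034), named after their values were seen. Of the 10 TALE relatives, Irx3 (1.55, adjusted p = 0.039) and Irx5 (2.04, adjusted p = 0.0066) were higher, and of the 9 hindbrain genes 3 were higher, among them Zic1 (2.94, adjusted p = 0.0030) and Fgf3 (1.95, adjusted p = 0.030), also named after their values were seen. Of the 11 retinoic acid response genes 1 was higher, Cyp26a1. Zic1 also stands in the neural progenitor list. These counts moved with the series left out. Without HM1 replicate 1 or 2, 0 genes were called in each of the 4 lists. Over all genes those fits called 37 of 18539 and 17 of 18499, beside 947 of 18279 with every series. The fit without line 319 called 2020 of 18696. The Hox count was 1 without line 14 or line 19 and 8 without line 319. For the TALE relatives it was 1 without line 1A4, 14 or 19 and 4 without line 319, and for the hindbrain genes 1 without line 19. For the retinoic acid list it was 0 without line 1A4 or 14 and 2 without line 319.

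Line 319 stood apart from the other knockouts in Pknox2 at day 0. There Pknox2 read 12.8 CPM in line 319, 0.45 in line 14 and 0.58 in line 19, and 1.27, 1.27 and 0.76 in the controls. On the log2(CPM + 0.5) scale line 319 was 3.40 above line 1A4, whereas lines 14 and 19 gave -0.91 and -0.71 against HM1. At day 2 line 319, at 3.41 CPM, lay within the range of the controls (1.70 to 3.55). Line 319 and line 1A4 have 1 sample a day each, so whether the knockout difference depends on the genetic background was not tested.

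Meis2 at day 0 was also highest in line 319, 2.07 above line 1A4, while lines 14 and 19 were 0.53 and 0.54 above HM1. At day 0 the primitive endoderm list, 6 genes, summed to 28.2 CPM in line 319 and 9.04 to 19.1 in the other samples, and the neuron list, 4 genes, to 654 CPM in line 319 and 322 to 453 elsewhere. Their part in the Pknox2 value was not tested.

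**Figure D5:**
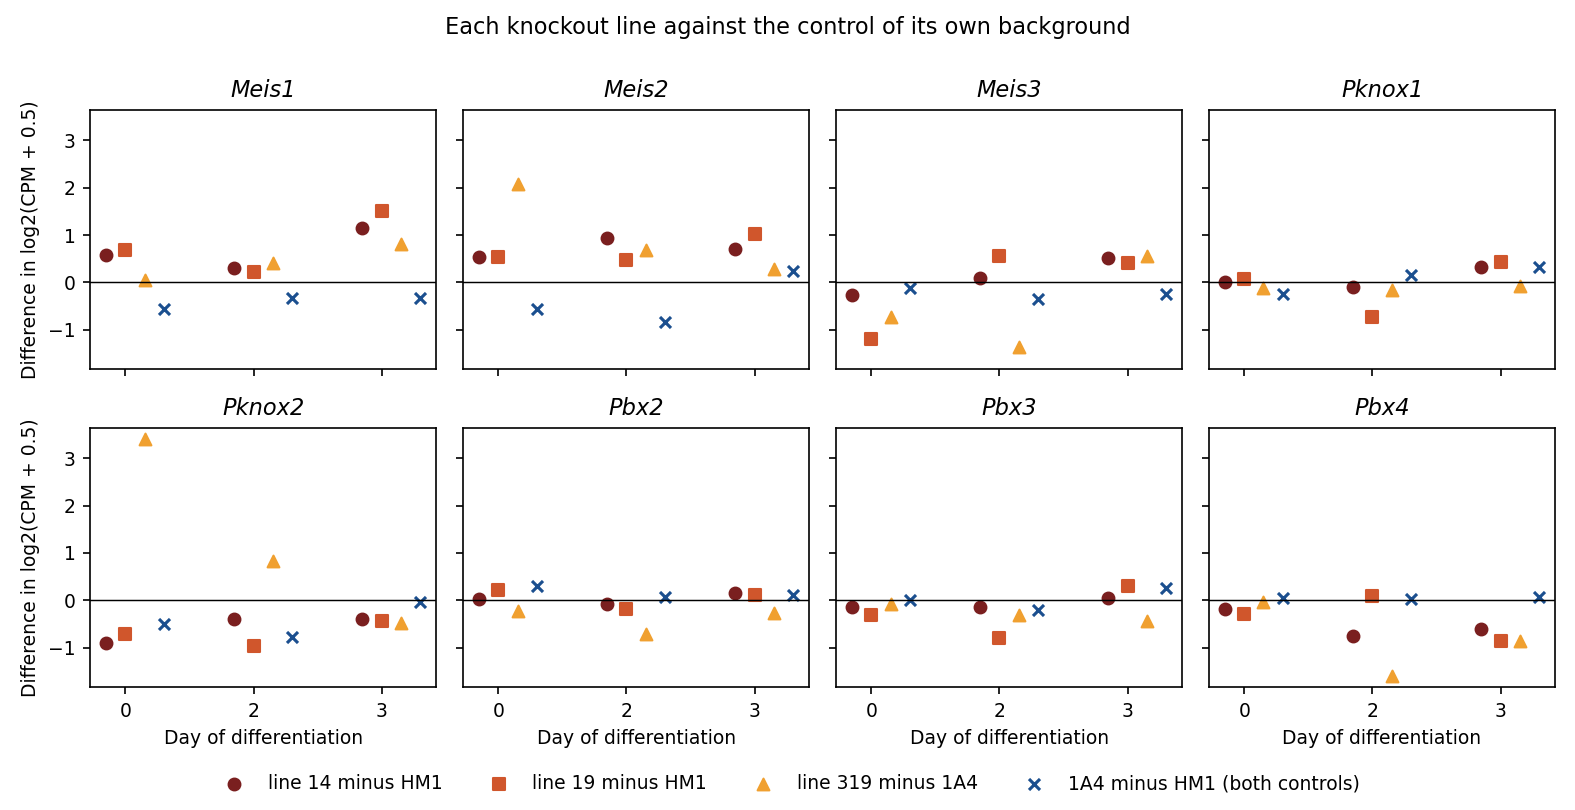
Difference in log2(CPM + 0.5) (y axis) of each knockout line from the control of its own background at days 0, 2 and 3 (x axis), with the difference between the control lines 1A4 and HM1 as crosses. At day 3 all 3 lines lie above 0 for Meis1, Meis2 and Meis3 and below 0 for Pbx4 and Pknox2, and at day 0 line 319 stands at 3.40 for Pknox2.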

How the data were processed

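The members and gene lists were chosen with earlier results of these data known. The deposited files hold raw counts per Ensembl transcript in 72 libraries, 4 technical replicates for each of 18 samples, made by the authors with bcl2fastq 2.17.1.14, STAR 2.4.0k, SAMtools and HTSeq on mm10, per the submitters' processing notes. Libraries were stranded and poly(A)-selected, per the labels' protocols. Which annotation release was counted, and whether by strand, is not given in the sources used here. Identifiers were matched to GENCODE on GRCm38 (108309 of 110379), and unmatched ones held 1.42% to 2.47% of counts. Reads were counted for each transcript they overlapped (transcript sums were 2.62 to 2.92 times gene sums), so transcripts were not added up and 1 represents each gene. Technical replicates, whose chi-square per degree of freedom was 1.01 to 1.03, were summed.

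Counts were tested with edgeR 4.0.16 (R 4.3.3) by the quasi-likelihood test, with TMM scaling, filterByExpr, 6 groups and a term for genetic background, over 18 samples with 11 residual degrees of freedom. Adjustment was by Benjamini-Hochberg over 18279 genes, and genes were called below 0.05. Errors of fold changes are standard errors and those of levels SDs. On simulated data the test recovered 100 of 100 genes changed 4-fold and 42 of 100 changed 2-fold for the day 3 comparison of genotypes, none with the wrong sign, over 17749 genes. At day 0, where the simulation left the same genes unchanged, 0 of 100 were called in either set. The simulation gave every gene the same dispersion and had no effects of line or day. Spread in the real samples differs between genes, and at day 3 the standard error was 0.71 for Pknox2 and 0.16 for Pbx2. A member that was not called is therefore not shown to lack a change of these sizes. Samples of 1 line pair across days because they come from the same line, and their deviations from the group means correlated at -0.09 to 0.40. All members are named, with the 3 most abundant genes of each list and the 3 genes most like each member, except a few genes that are not reported here. Alternatives were RLE scaling, DESeq2 1.42.0, no filter, each series left out, no background term, HM1-derived lines alone, the compared groups alone, no day 2 of line 19, random (limma 3.58.1) and fixed replicate blocks, all transcripts added up, the longest transcript, and centring by chromosome.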

Additional observations from a re-analysis of the deposited data

Results flagged for a closer look

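In Pknox2 at day 0 the blastocyst-derived knockout line 319 lay above its control line 1A4 by 3.40 in log2(CPM + 0.5), while the HM1-derived lines 14 and 19 lay below HM1 (-0.91 and -0.71). At day 2 the signs were the same, at 0.83 in line 319 and -0.39 and -0.96 in lines 14 and 19. In Meis3 at day 2 line 319 was at -1.36 and lines 14 and 19 at 0.10 and 0.55. The other opposite signs were Pbx2 at day 0 (-0.22 in line 319) and, at day 3, Pbx2 (-0.27), Pbx3 (-0.44) and Pknox1 (-0.08), each with lines 14 and 19 above HM1. That makes 7 of 24 combinations of member and day. Signs can differ through noise alone, and the share of all genes with opposite signs was not counted. For Pbx2 at day 0 lines 14 and 19 gave 0.03 and 0.22, with the HM1 replicates 0.25 apart. For Pknox1 at day 3 the HM1 replicates were 0.08 apart. None of these differences between backgrounds was tested, since line 319 and line 1A4 have 1 sample each at a day.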

How the results depend on the processing

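The call of Meis1 in knockouts at day 3 and its alternatives are given with the result above. Counts of members called moved as follows, each followed by the counts over all genes in the same order. Between genotypes at day 0, DESeq2 called 1 and leaving out a replicate 0 to 1. All genes gave 557 of 17924 and 18 to 407. At day 2, 1 was called without day 2 of line 19, and 0 to 1 without a replicate. All genes gave 375 of 18929 and 22 to 1378. At day 3, 2 were called in the HM1-derived lines alone, 5 with the compared groups alone, 2 without day 2 of line 19, and 0 to 1 without a replicate. All genes gave 1127 of 18518, 2547 of 16873, 3007 of 18929 and 17 to 2020. From day 0 to day 2 in controls, DESeq2 called 5, the HM1-derived lines alone 6, the compared groups alone 7, and leaving out a replicate 2 to 6. All genes gave 7184 of 18279, 5670 of 18518, 10792 of 16685 and 2831 to 8905. In knockouts the compared groups alone called 2, beside 2495 of 16472 genes.

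Samples were paired across days by line. With a random replicate block (consensus correlation 0.009) 4 members were called from day 0 to day 2 in each genotype, 6 and 6 from day 2 to day 3, and 0, 0 and 1 between genotypes. A fixed replicate block gave 4 and 4, then 5 and 6, so beyond Pbx2 and Meis3 in controls the block changed no call of a member.

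In Pknox2 from day 0 to day 2 in knockouts the direction turned, from -0.64 to 1.94 with HM1-derived samples only (adjusted p = 0.0005), which leaves out line 319, and to 0.61 with the compared groups alone, 0.32 with a random replicate block and 0.55 centred by chromosome, with a range of -1.34 to 1.95 over left-out replicates. The other turns were between values that were not called. In the HM1-derived lines alone, Pknox2 between genotypes gave -1.27 at day 0, and its change of that difference 0.57 to day 2 and 0.28 from day 2 to 3, Meis2 gave 0.27 to day 2, Meis3 0.33 at day 2, and at day 3 Pbx3 0.17, Epha2 -0.30, Hoxb4 0.37 and Tgif2 0.02. Centred by chromosome, Hoxb4 gave 0.24 at day 3, Pbx4 0.03 at day 0, and the change of the difference 0.04 from day 2 to 3 in Pbx4 and 0.06 to day 2 in Meis1. That Meis1 value, -0.01 as reported, was 0.01 with RLE scaling, 0.05 without day 2 of line 19, 0.02 with a random replicate block, 0.03 with a fixed replicate block, 0.10 with all transcripts added up and 0.01 on the longest transcript. The longest transcript also gave 0.15 for Pbx3 at day 0 and 0.08 for the change of the Meis2 difference from day 2 to 3. Without day 2 of line 19, Pbx4 gave 0.36 for its change of the difference from day 2 to 3 and 0.17 from day 2 to 3 in knockouts, and a random replicate block gave 0.05 for that change.

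Over left-out replicates the ranges that cross 0 were, between genotypes, -1.22 to 2.43 for Pknox2 at day 0, -0.49 to 0.37 for Meis3 and -1.06 to 0.02 for Pknox2 at day 2, and -0.16 to 0.10 for Pbx3, -0.08 to 0.54 for Crabp2, -0.29 to 0.88 for Epha2, -0.39 to 0.33 for Hoxb4 and -0.26 to 0.10 for Tgif2 at day 3. For the change of the difference to day 2 they were -0.32 to 0.21 for Meis1, -0.94 to 0.40 for Meis2 and -2.63 to 0.65 for Pknox2, and from day 2 to 3 -0.45 to 0.19 for Meis2, -0.48 to 0.42 for Pbx4 and -0.46 to 0.23 for Pknox2. In knockouts they were -0.06 to 0.25 for Pbx2 to day 2 and -0.66 to 0.24 for Pbx4 from day 2 to 3. The cause of these changes was not tested beyond the samples or genes that each alternative leaves out. Depth limits Meis1 at day 2 and Pknox2 at day 0, which read at most 1.27 CPM in every sample except Pknox2 in line 319.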
